A study of Mus musculus with 8 samples.

Results

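The transcripts of 7 serpin genes, Serpina12, Serpinb2, Serpinb3a, Serpinb3b, Serpinb3c, Serpinb3d and Serpinb12, were followed in mouse skin at rest and after exposure to house dust mite extract (HDM), with and without oral butyrate. They are 7 of the 22740 protein-coding genes with counts, and they were chosen by name with their CPM (counts scaled to library size) in all 8 libraries known. Their levels and fold changes are therefore given as a description, without a test. Skin of 8 female BALB/c mice was sequenced, each mouse as its own library, in 4 groups of 2 mice. Baseline CTL mice drank plain water and received no HDM, and baseline butyrate mice drank 400 mM sodium butyrate and received no HDM. Lesional CTL and lesional butyrate mice drank the same 2 fluids and in addition received 15 µg HDM on dorsal skin in each of 4 exposures over 2 weeks, under an occlusive patch on shaved skin. Butyrate started 2 weeks before the first exposure, all mice were labelled as 6 to 8 weeks old, and all were kept on a diet low in fibre. Baseline skin was taken when butyrate treatment ended and lesional skin after the exposures, so that HDM, the patch and shaving, the time on butyrate and the set of mice cannot be told apart. RNA came from excised whole skin, in which fewer cells of a type and less RNA per cell cannot be told apart either.

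Serpins are protease inhibitors that present a loop as bait, are cut there by the target protease and trap it. Members of clade A are secreted, whereas members of clade B stay mostly inside cells and many are made by keratinocytes. Serpinb3a to Serpinb3d are mouse copies of the human pair SERPINB3 and SERPINB4, the squamous cell carcinoma antigens, which inhibit cysteine cathepsins (SERPINB3) and chymotrypsin-like proteases such as cathepsin G and mast cell chymase (SERPINB4), and which rise in inflamed human epidermis. Serpinb2, also called plasminogen activator inhibitor 2, inhibits urokinase. Serpinb12 inhibits trypsin-like proteases. Serpina12, or vaspin, was first described in fat and is also made in the epidermis, where it inhibits the kallikreins KLK7 and KLK14 that cut the junctions between cornified cells.

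The 6 clade B genes lie in 1 cluster on chromosome 1, in which 11 Serpinb genes with counts span 749 kb, and the 4 Serpinb3 genes lie side by side within 233 kb of it. On the GRCm38 build, annotated in GENCODE, Serpinb12 lies at chr1:106934449-106957080 on the forward strand. The Serpinb3 genes follow on the reverse strand, with Serpinb3a at chr1:107045587-107052303, Serpinb3d at chr1:107078167-107083506, Serpinb3b at chr1:107153940-107278361 and Serpinb3c at chr1:107271201-107278371. The long span of Serpinb3b comes from 1 annotated transcript that starts in the first exon of Serpinb3c, with which it shares 35 exonic bases. Serpinb2 lies at chr1:107511423-107535478 on the forward strand. Serpina12 is apart from the cluster, at chr12:104028769-104044443 on the reverse strand.

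The Serpinb3 genes are close copies, and the start regions of 3 of them are shown because these near-identical sequences belong to genes with very different levels in the same skin. Each is the RefSeq window on GRCm38.p6 from 250 bases before to 50 bases after the annotated start, read 5′ to 3′ on the reverse strand. They cover chr1:107052254-107052553 for Serpinb3a, chr1:107161065-107161364 for Serpinb3b and chr1:107278322-107278621 for Serpinb3c. Capitals mark the bases of Serpinb3a and of Serpinb3c that differ from Serpinb3b where the windows align, and Serpinb3b, the reference, has none.
Serpinb3a: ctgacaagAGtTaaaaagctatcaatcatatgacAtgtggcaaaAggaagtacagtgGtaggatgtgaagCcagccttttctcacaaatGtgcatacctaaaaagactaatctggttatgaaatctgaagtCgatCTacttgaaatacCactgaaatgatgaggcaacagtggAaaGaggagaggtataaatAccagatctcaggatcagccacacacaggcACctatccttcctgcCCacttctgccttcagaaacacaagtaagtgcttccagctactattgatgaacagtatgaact
Serpinb3b: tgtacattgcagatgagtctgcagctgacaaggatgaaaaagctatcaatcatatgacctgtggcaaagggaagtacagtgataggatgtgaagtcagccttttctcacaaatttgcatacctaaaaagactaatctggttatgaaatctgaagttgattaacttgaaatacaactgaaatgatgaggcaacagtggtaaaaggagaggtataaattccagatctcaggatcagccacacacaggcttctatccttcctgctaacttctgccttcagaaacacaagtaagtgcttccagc
Serpinb3c: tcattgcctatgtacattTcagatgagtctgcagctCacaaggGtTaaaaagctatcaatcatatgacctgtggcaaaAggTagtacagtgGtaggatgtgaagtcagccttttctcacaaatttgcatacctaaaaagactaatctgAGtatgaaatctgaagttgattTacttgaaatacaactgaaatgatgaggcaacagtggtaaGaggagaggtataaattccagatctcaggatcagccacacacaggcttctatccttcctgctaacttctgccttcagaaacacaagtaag
Over the aligned stretch, Serpinb3b and Serpinb3c were identical at 279 of 290 positions (96.2%) and Serpinb3a and Serpinb3b at 257 of 276 (93.1%). The annotated Serpinb3d start did not align with these windows. All 3 windows hold the letters TATAAA once, beginning 65, 41 and 31 bases before the annotated starts of Serpinb3a, Serpinb3b and Serpinb3c, and 13.6% of the 32851 RefSeq windows of this length hold them on either strand. The letters TGANTCA (AP-1, in 7.81% of all windows), TTCNNNGAA (STAT, 8.3%), TTGCNNAA (C/EBP, 10.8%) and AACCNGTT (grainyhead-like, 2.09%) were also searched on both strands and are in none of these 3 windows. Among the other members, TGANTCA is present in the windows of Serpinb2 and Serpinb12, TTCNNNGAA in that of Serpinb2, TTGCNNAA in those of Serpina12, Serpinb2, Serpinb3d and Serpinb12, and AACCNGTT in none.

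The transcripts are almost as alike as the start regions. The longest annotated transcripts of Serpinb3a and Serpinb3b are 92.7% identical and those of Serpinb3b and Serpinb3c 93.7%, the highest of the 6 pairs, whereas Serpinb3c and Serpinb3d are the lowest at 86.2%. Of all 50-base windows, 6.51% of Serpinb3a and 14.3% of Serpinb3b occur unchanged in another Serpinb3 transcript. Of all 100-base windows, 0% of Serpinb3a and 0.515% of Serpinb3b do. Reads within such shared stretches cannot be given to 1 gene, and the read length is not given in the sources used here, so that the split between the copies is uncertain and their sum is given beside each copy. How reads with several matches were treated is not given either, and if they were left out, the levels and the sum are undercounts.

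Library totals lay between 18004136 and 21085544 counts. One library stood apart from the others. In baseline butyrate replicate 3, the summed level of 7 inner root sheath and hair cortex markers was 17200 CPM, compared with 8.57 to 14.5 CPM in the other 7 mice. The members' fitted fold changes that rest on baseline butyrate skin are therefore given with and without that mouse. In the same mouse 6 suprabasal keratinocyte markers summed to 2750 CPM, compared with 12000 CPM in the other baseline butyrate mouse. Ivl, 1 of the 6, was however higher there (344 against 150 CPM). The tissue was labelled as skin, and all 5 basal keratinocyte markers were detected in every library and summed to between 6940 and 12700 CPM. A count of 3, taken as the floor of detection, corresponded to 0.138 to 0.169 CPM.

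Serpinb3b, the copy with most of the Serpinb3 transcripts, was higher in lesional than in baseline skin. In baseline CTL skin it was at 73.3 and 62.2 CPM and in baseline butyrate skin at 61.1 and 7.38 CPM, the lower value being that of replicate 3. In lesional CTL skin it was at 452 and 314 CPM and in lesional butyrate skin at 278 and 188 CPM. The 4 lesional mice were thus all above the 4 baseline mice, and both lesional butyrate mice were below both lesional CTL mice. The mean was 5.65-fold higher in lesional than in baseline CTL skin (383 ± 97 against 67.7 ± 7.87 CPM, SD, n = 2 mice each), with a fitted log2 fold change of 2.5 ± 0.87 (standard error, SE). In lesional skin it was 1.64-fold lower with butyrate (233 ± 64.2 CPM), with a log2 fold change of -0.72 ± 0.83, which is smaller than its SE. That SE draws on the spread within all 4 groups, not only the lesional ones. The mice differed 8.28-fold in baseline butyrate, 1.44-fold in lesional CTL and 1.48-fold in lesional butyrate skin.

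Serpinb3a, in contrast, was almost absent at baseline. It had 3 and 1 counts in baseline CTL skin and 0 in both baseline butyrate mice, at or under the floor of detection. In lesional CTL skin it had 1973 and 652 counts, or 105 and 30.1 CPM, and in lesional butyrate skin 762 and 220 counts, or 36.4 and 10.2 CPM. All 4 lesional mice were therefore far above the baseline mice, while the lesional groups overlapped. Between CTL groups the ratio was 609 (95% interval from counting error alone 228 to 2150), and between butyrate groups the lesional mean was at least 149-fold higher than the floor of 3 counts per library. The fitted log2 fold change between CTL groups was 9.17 ± 1.32, from 8.00 without lesional CTL replicate 4 to 10.1 without baseline CTL replicate 1, and the limit between butyrate groups was 65.6-fold without lesional butyrate replicate 3 and 233-fold without replicate 4. In lesional skin the mean was 2.91-fold lower with butyrate (23.3 ± 18.5 against 67.7 ± 53.2 CPM), with a log2 fold change of -1.54 ± 0.81. This value rested on single mice, being -0.37 when replicate 4 of lesional CTL was left out and -2.72 when replicate 3 of lesional butyrate was.

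Serpinb3c and Serpinb3d stayed near the floor in every group and did not pass the filter on low counts. Serpinb3c had 0 to 8 counts per mouse, the highest number being that of baseline butyrate replicate 1, and Serpinb3d had 0 counts in the 4 baseline mice, 5 and 4 in lesional CTL mice and 3 and 0 in lesional butyrate mice. The mean of Serpinb3d in lesional CTL skin was at least 1.35-fold higher than the floor of 3 counts per library in baseline CTL skin, and no other difference between groups was detectable for either gene at this depth in the 4 comparisons. In lesional CTL replicate 4, Serpinb3c was at 0.160 CPM and Serpinb3b, whose start region shown above differs from it at 11 aligned positions, at 452 CPM.

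**Figure D1:**
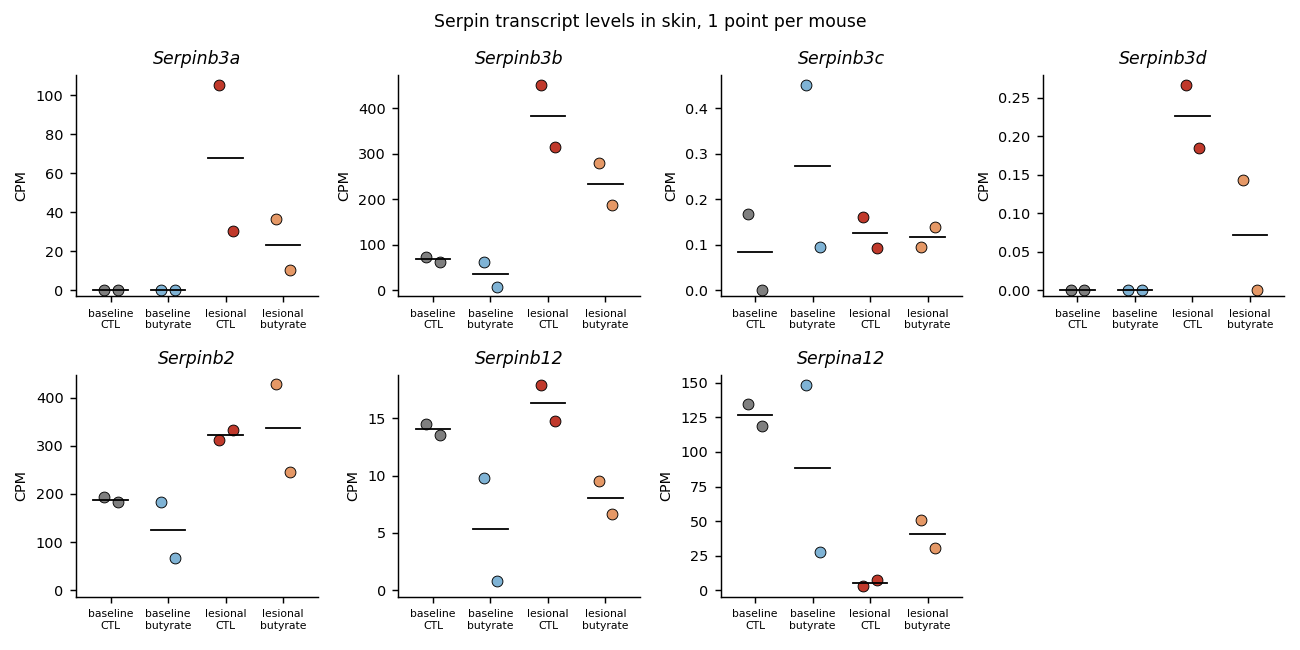
Level of each serpin in CPM (linear axes with their own scales) in the 4 groups, with 1 point per mouse and a line at the mean of 2 mice. Serpinb3a and Serpinb3b are higher in all 4 lesional mice than in any baseline mouse, Serpina12 is lowest in the 2 lesional CTL mice (3.20 and 7.75 CPM), and Serpinb3c and Serpinb3d do not exceed 0.451 CPM.

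The make-up of the Serpinb3 transcripts also differed between baseline and lesional skin. Serpinb3b gave 99.5% and 99.9% of the Serpinb3 counts in the baseline CTL mice, and Serpinb3a gave 0.226% and 0.0892%. The share of Serpinb3a was 18.9% (95% exact binomial interval 18.1 to 19.7%) and 8.73% (8.1 to 9.39%) in lesional CTL skin, and 11.5% (10.8 to 12.3%) and 5.17% (4.52 to 5.88%) in lesional butyrate skin. In the baseline butyrate mice it was 0%, for which the upper limits were 0.337% in replicate 1 and 2.32% in replicate 3. Mice of the same lesional group thus differed by more than counting error, and the CTL and butyrate shares overlapped. The intervals cover counting error only. Summed over the 4 copies, Serpinb3 was at 67.9 ± 8.07 CPM in baseline CTL, 34.5 ± 38.2 in baseline butyrate, 451 ± 150 in lesional CTL and 257 ± 82.8 in lesional butyrate skin. The sum gave log2 fold changes of 2.73 ± 0.90 between lesional and baseline CTL skin and of -0.81 ± 0.84 between butyrate and CTL lesional skin, the same directions as those of Serpinb3b alone.

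**Figure D2:**
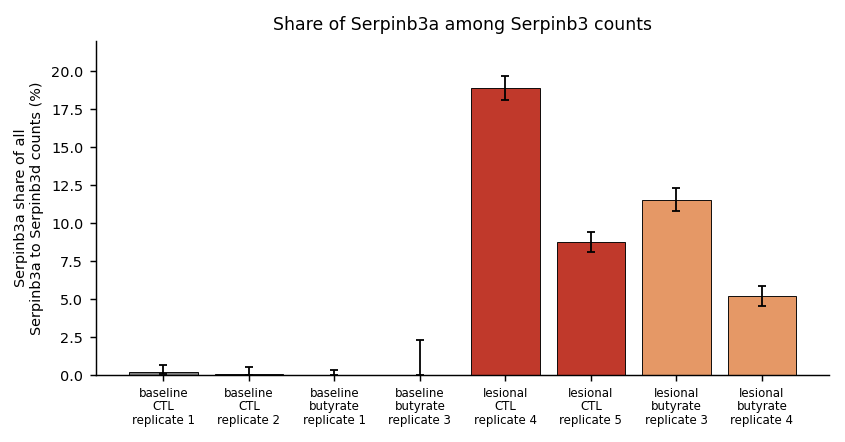
Share of Serpinb3a among the counts of Serpinb3a to Serpinb3d (%, linear axis from 0) in each of the 8 mice, as bars with 95% exact binomial intervals. The 4 lesional mice lie between 5.17 and 18.9% and the 4 baseline mice between 0 and 0.226%.

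Serpinb2, the urokinase inhibitor, was also higher in lesional skin, by less than the Serpinb3 copies. It was at 194 and 183 CPM in baseline CTL skin and at 184 and 67.5 CPM in baseline butyrate skin. It was at 313 and 332 CPM in lesional CTL skin and at 429 and 246 CPM in lesional butyrate skin. All lesional mice were above all baseline mice, and the lesional butyrate mice fell on either side of the lesional CTL mice. The mean was 1.71-fold higher in lesional than in baseline CTL skin (log2 fold change 0.77 ± 0.48). Between butyrate and CTL lesional skin the log2 fold change was 0.07 ± 0.47, and it was -0.39 without lesional butyrate replicate 3 and 0.41 without replicate 4.

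Serpinb12, at the other end of the cluster, was a low transcript with lower values in the butyrate-treated mice. It was at 14.5 and 13.5 CPM in baseline CTL skin and at 17.9 and 14.7 CPM in lesional CTL skin. It was at 9.75 and 0.857 CPM in baseline butyrate skin and at 9.50 and 6.65 CPM in lesional butyrate skin. All 4 butyrate-treated mice were below all 4 CTL mice. How many of all genes separate in this way was not counted. Butyrate and CTL groups of 2 mice did not overlap for 44.9% of all genes in lesional skin and 29.7% in baseline skin. In lesional skin the mean was 2.02-fold lower with butyrate (8.08 ± 2.01 against 16.3 ± 2.27 CPM, log2 fold change -1.02 ± 0.88). In baseline skin the log2 fold change was -1.41 ± 0.90, and it was -0.52 without baseline butyrate replicate 3 and -4.03 without replicate 1.

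Serpina12, the clade A member, went the other way. It was at 135 and 119 CPM in baseline CTL skin, and at 148 and 27.7 CPM in baseline butyrate skin, with the lower value again in replicate 3. It was at 3.20 and 7.75 CPM in lesional CTL skin and at 51.0 and 30.8 CPM in lesional butyrate skin. Lesional CTL mice were thus below every other mouse, and the lesional butyrate mice were between them and the baseline CTL mice. The mean was 23.1-fold lower in lesional than in baseline CTL skin (5.48 ± 3.22 against 127 ± 11.5 CPM, log2 fold change -4.52 ± 0.90). In lesional skin it was 7.46-fold higher with butyrate (40.9 ± 14.3 CPM, log2 fold change 2.89 ± 0.84), and leaving out each mouse in turn gave 2.40 to 3.67.

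Sums of cell markers also differed between the groups, and single markers did not all follow their sum. The 6 suprabasal keratinocyte markers summed to 12100 to 12900 CPM in baseline CTL, 3000 to 4050 in lesional CTL and 8510 to 10900 in lesional butyrate skin, an order like that of Serpina12, and in baseline butyrate skin they were at 12000 CPM in replicate 1 and 2750 CPM in replicate 3, where Serpina12 was also the lower. Krt10 and Krt1 made up most of the baseline CTL sum (means of 6810 and 3320 CPM). Ivl, another of the 6, was at 147 CPM in both baseline CTL mice and at 165 and 167 CPM in lesional CTL mice. In lesional butyrate mice it was at 350 and 247 CPM. In baseline butyrate skin it was at 150 CPM in replicate 1 and at 344 CPM in replicate 3, opposite to the sum. The 4 keratins of injured epidermis summed to 1020 to 1170 CPM in baseline CTL, 5590 to 8550 in lesional CTL and 3490 to 4860 in lesional butyrate skin, the order of the means of Serpinb3a and Serpinb3b in these 3 groups. In baseline butyrate replicate 3, however, these keratins summed to 3330 CPM, above the other 3 baseline mice. Serpinb3b was lowest there and Serpinb3a had 0 counts. Most of that sum was Krt17 (2670 CPM, against 668 CPM in replicate 1), and Krt6a was also higher there (597 against 247 CPM). Krt16 (44.6 against 66.2 CPM) and Krt6b (19.1 against 57.9 CPM) were instead lower than in replicate 1. The 5 neutrophil markers summed to 22.3 to 26.0 CPM, 1700 to 2800 CPM and 365 to 795 CPM in the same groups. S100a8 and S100a9 made up most of the lesional CTL sum (789 ± 298 and 1150 ± 446 CPM). All 5 markers were lower with butyrate in lesional skin, Cxcr2 by less than the sum (31.1 ± 6.63 against 60.7 ± 5.39 CPM). No marker of these 3 lists was at 0 in any library. The 5 adipocyte markers, of a cell type known to make Serpina12, summed to 1050 to 1540 CPM in baseline CTL, 1010 to 1120 in lesional CTL and 961 to 1160 in lesional butyrate skin, so that the lesional ranges overlapped. Most of this sum was Fabp4, whose lesional groups overlapped, as did those of Plin1. Lep was lower in lesional butyrate than in lesional CTL mice (10.6 and 11.1 against 28.5 and 33.2 CPM). Adipoq (146 and 117 against 111 and 115 CPM) and Cidec (160 and 159 against 124 and 149 CPM) were higher. The 5 skeletal muscle markers summed to 30400 to 39800 CPM in baseline CTL, 13600 to 20000 in lesional CTL and 11200 to 20500 in lesional butyrate skin. The part of these cells in the levels of the serpins was not tested.

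Set against all genes, the members' counts were as follows. The 5 members that passed the filter were Serpina12, Serpinb2, Serpinb3a, Serpinb3b and Serpinb12, and 15163 genes were tested in all with edgeR's quasi-likelihood test, with a call at a false discovery rate (FDR) below 0.1 and a fold above 2. Between lesional and baseline CTL skin, 2 of the 5 were called, Serpinb3a as higher and Serpina12 as lower, beside 3.58% of all genes. These 2 calls were lost with limma-voom and whenever any CTL or lesional butyrate mouse was left out, and DESeq2 called Serpinb3b as well. In the same comparison DESeq2 called 1093 of the 15163 genes in all. There the 2 groups did not overlap for all 5 members, beside 75.2% of all genes. Between lesional and baseline butyrate skin no member was called by edgeR, beside 0.35% of all genes, and 3 of 5 did not overlap, beside 32.5%. In that comparison DESeq2 called Serpinb3a, Serpinb3b and Serpinb2, among 698 of the 15163 genes. There edgeR called Serpinb3a, Serpinb3b and Serpina12 among 912 genes without baseline butyrate replicate 3, and Serpinb2, Serpinb3a, Serpinb3b and Serpinb12 among 2990 genes without replicate 1. No member and 0% of all genes were called for butyrate against CTL in lesional skin, where 3 of 5 did not overlap beside 44.9%, or in baseline skin, where 3 of 5 did not overlap beside 29.7%. In these comparisons 734 and 529 genes had an unadjusted p below 0.05. Without either baseline butyrate mouse, and by DESeq2, Serpina12 was called as higher with butyrate in lesional skin, among 187 to 191 genes without a mouse and 124 genes by DESeq2. Without baseline butyrate replicate 1, Serpina12, Serpinb2, Serpinb3b and Serpinb12 were called as lower with butyrate in baseline skin, among 3777 genes. Since the members were chosen on these values, nothing is read from their counts. How many of all genes separated all 4 lesional from all 4 baseline mice was not counted.

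The 4 comparisons share groups, and the members' own values in the butyrate-treated mice depended on baseline butyrate replicate 3. Between lesional and baseline butyrate skin the log2 fold change was 2.77 ± 0.88 for Serpinb3b, 1.93 without that mouse and 4.98 without replicate 1. For Serpinb2 it was 1.43 ± 0.48, 0.88 and 2.33, and for Serpinb12 0.62 ± 0.89, -0.27 and 3.23, in the same order. For Serpina12 it was -1.11 ± 0.77 with overlapping groups, -1.86 without replicate 3 and 0.57 without replicate 1. Serpinb3b and Serpinb2 thus kept their direction whichever baseline butyrate mouse was used, and Serpina12 and Serpinb12 did not. For butyrate against CTL in baseline skin, the value of Serpinb3b was -0.99 ± 0.84 and -0.15 without replicate 3, that of Serpinb2 -0.58 ± 0.48 and -0.04, and that of Serpina12 -0.53 ± 0.77 and 0.23. Without replicate 1 instead, the values were -3.20 for Serpinb3b, -1.48 for Serpinb2, -2.20 for Serpina12 and -4.03 for Serpinb12. Without replicate 3 none of the values of Serpinb3b, Serpinb2 and Serpina12 was larger than its SE in the full set of mice.

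**Figure D3:**
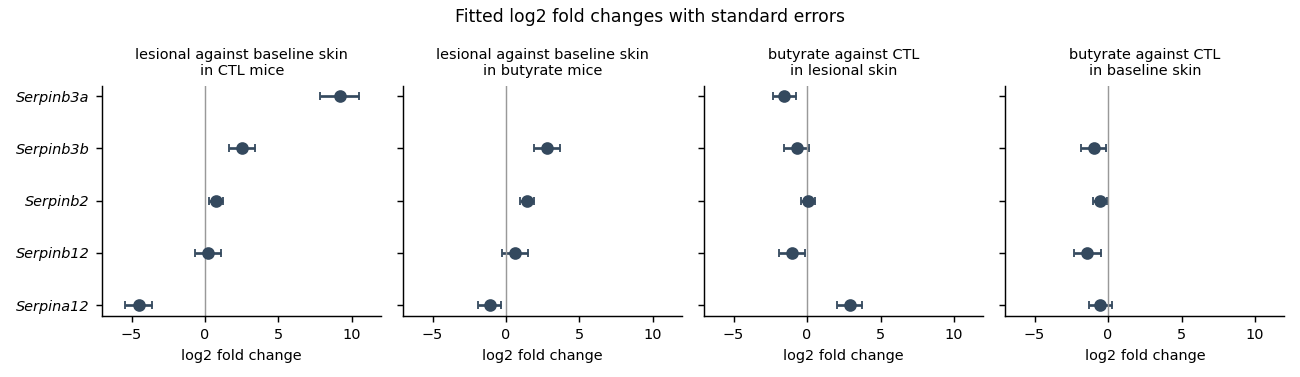
Fitted log2 fold changes (points) and SE (bars) of the 5 tested members in 4 comparisons of 2 groups with 2 mice each. Serpinb3a is left out of both comparisons with baseline butyrate skin, where it had 0 counts, and Serpina12 is at -4.52 between lesional and baseline CTL skin and at 2.89 between butyrate and CTL lesional skin.

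Compared per kilobase of exon, a scale on which levels of different genes can be set side by side, the order of the members differed between baseline and lesional skin. In baseline CTL skin Serpinb2 led with 80.2 ± 3.4 CPM per kb, followed by Serpinb3b with 40.1 ± 4.67 and Serpina12 with 34.3 ± 3.10, whose ranges did not overlap although the gap was small, then by Serpinb12 with 5.61 ± 0.272, and Serpinb3a was last but for the copies near 0. In lesional CTL skin Serpinb3b led with 227 ± 57.5 CPM per kb, above Serpinb2 with 137 ± 5.63, Serpinb3a with 41.5 ± 32.6, Serpinb12 with 6.54 ± 0.909 and Serpina12 with 1.48 ± 0.872. No neighbouring pair overlapped in its 2 mice. In lesional butyrate skin Serpinb2 and Serpinb3b could not be ordered, with 144 ± 55.0 and 138 ± 38.0 CPM per kb, and neither could Serpinb3a and Serpina12, with 14.3 ± 11.3 and 11.1 ± 3.87. Serpinb12 was lowest of these 5 there, with 3.23 ± 0.805.

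The other 5 Serpinb genes of the cluster did not share 1 pattern. Serpinb5 (maspin) was at 602 ± 74.2 CPM in baseline CTL and 532 ± 27.9 CPM in lesional CTL skin, with overlapping mice. Serpinb13 stayed low, at 1.36 ± 0.590 and 1.77 ± 0.168 CPM, and Serpinb11 was at 10.6 ± 1.5 and 24.8 ± 3.56 CPM. Serpinb8 was at 153 ± 12.6 and 96.9 ± 1.54 CPM. Serpinb7, named here after its values were seen, was at 143 and 121 CPM in baseline CTL, 15.2 and 29.8 CPM in lesional CTL and 105 and 63.1 CPM in lesional butyrate skin, but was not called in either comparison (edgeR log2 fold change -2.55 ± 0.76, FDR 0.155, and 1.90 ± 0.74, FDR 0.989). With all 8 mice edgeR called none of the 5 in any comparison, while DESeq2 called Serpinb7 between lesional and baseline CTL skin. In that comparison edgeR called Serpinb7 and Serpinb11 with only the 4 mice compared and without either baseline butyrate mouse, and with one or the other of these mice left out Serpinb7, Serpinb8, Serpinb11 and Serpinb13 were each called in at least 1 of the other comparisons.

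**Figure D4:**
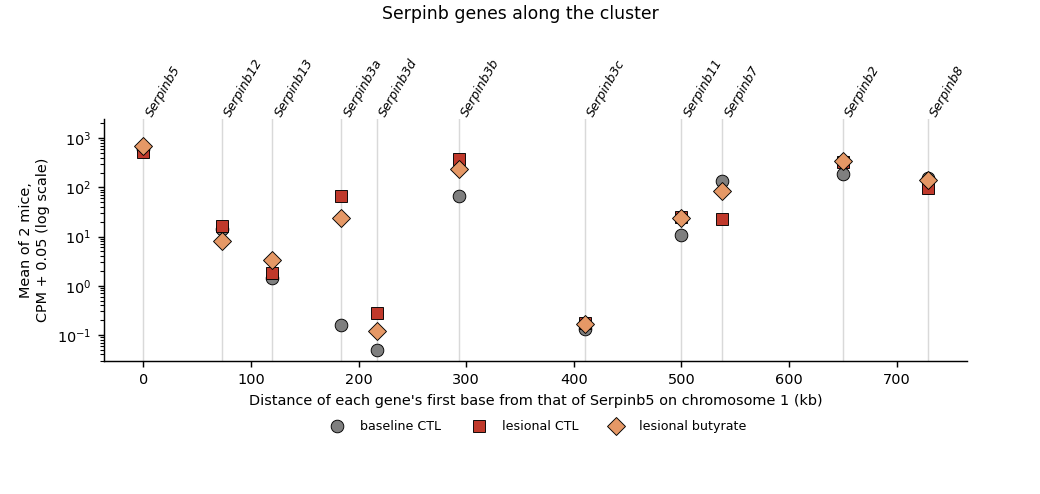
Mean CPM of 2 mice (log axis, with 0.05 added so that 0 can be drawn) of the 11 Serpinb genes against the distance of each gene's first base from that of Serpinb5 on chromosome 1 (kb), for baseline CTL, lesional CTL and lesional butyrate skin. Serpinb3a, at 184 kb, moves from 0.111 to 67.7 CPM between the CTL groups, while Serpinb3c, at 410 kb, stays at or below 0.126 CPM and Serpinb5, at 0 kb, between 532 and 704 CPM.

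Companion genes, which were not members, were tested in the same fit. They were the other serpins, proteases that these serpins inhibit and cytokine signals that induce the human counterparts, and 64 of 86 had enough counts. In fits that left out a mouse the filter was rerun, and 65 to 70 of the companions were tested. Between lesional and baseline CTL skin 11 of the 64 were called, 10 as higher and 1 as lower, beside 3.58% of all genes. Of the other clade B serpins 1 of 14 was called, Serpinb6c, which rose from 3.47 ± 1.46 to 16.9 ± 3.38 CPM (edgeR log2 fold change 2.28 ± 0.49, FDR 0.0822). Of the other clade A serpins 3 of 13 were called. Serpina3n, an acute-phase inhibitor, rose from 73.9 ± 11.9 to 328 ± 121 CPM (2.15 ± 0.31, FDR 0.0374) and Serpina3m from 0.888 ± 0.313 to 4.97 ± 2.12 CPM (2.48 ± 0.49, FDR 0.0701), whereas Serpina5, the protein C inhibitor, fell from 1.47 ± 0.119 to 0.119 ± 0.0928 CPM (-3.52 ± 0.57, FDR 0.0445). The median log2 fold changes of the clade B and clade A groups were 0.04 and 0.51, and that of all genes was -0.0154. The 11 calls rested on each CTL mouse, with 0 called by edgeR when any 1 of these was left out, 2, Plaur among them, without either lesional butyrate mouse, and 24 without either baseline butyrate mouse.

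Among the proteases inhibited by these families, 2 of 4 genes of plasminogen activation, 1 of 2 kallikreins, 1 of 4 mast cell and neutrophil serine proteases and 0 of 10 cysteine cathepsins were called. Plau, which encodes urokinase, the target of Serpinb2, rose from 54.5 ± 9.06 to 129 ± 14.3 CPM between baseline and lesional CTL skin (edgeR log2 fold change 1.24 ± 0.21, FDR 0.0508), and its receptor gene Plaur from 4.86 ± 0.192 to 31.4 ± 7.42 CPM (2.69 ± 0.29, FDR 0.0262). Plat, the tissue-type activator, was at 30.8 ± 3.09 and 31.4 ± 5.66 CPM (0.03 ± 0.30, FDR 0.962). Klk14, a target of vaspin, rose from 0.389 ± 0.235 to 6.89 ± 4.52 CPM (4.12 ± 0.80, FDR 0.0676), while its other target Klk7 was at 262 ± 22.9 and 584 ± 61.8 CPM and was not called (1.15 ± 0.43, FDR 0.221). In the 2 kallikreins the levels of lesional butyrate and lesional CTL mice overlapped, in skin where those of Serpina12 did not. Cma1, the mast cell chymase, rose from 34.8 ± 4.56 to 97.1 ± 17.3 CPM (1.48 ± 0.31, FDR 0.0771), and cathepsin G transcripts (Ctsg) were under 1.1 CPM in every mouse (0.16 ± 0.90, FDR 0.933). Among the cysteine cathepsins, Ctsl was at 317 ± 25.6 and 510 ± 32.6 CPM (FDR 0.136), Ctsk at 56.9 ± 15.4 and 126 ± 24.9 CPM (FDR 0.112) and Ctss at 74.7 ± 14.7 and 173 ± 13.1 CPM (FDR 0.321). These 4 calls were lost by edgeR without any 1 CTL mouse, those other than Plaur also without either lesional butyrate mouse, and that of Klk14 also by limma-voom. Ctsk was called by limma-voom and DESeq2, and Klk7, Ctsc and Mcpt4 by DESeq2.

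Of 8 tested genes of cytokines, receptors and the signal genes Stat3 and Stat6, 2 were called between lesional and baseline CTL skin. Il4, named here after its values were seen, was not called with all 8 mice (edgeR log2 fold change 2.33 ± 0.83, FDR 0.21). It was at 0.167 ± 0.0784 CPM in baseline CTL skin, near the floor, and at 1.23 and 0.508 CPM in lesional CTL mice. In lesional butyrate mice it was lower, at 0.286 and 0.0465 CPM, the second value being under the floor. It was not called there either (edgeR log2 fold change -2.33 ± 0.81, FDR 0.942). Il13 had 2 counts in both baseline CTL mice together and 103 in the lesional CTL mice, a ratio of 45.9 (95% interval from counting error 12.4 to 384, edgeR FDR 0.0672). Il4ra, the receptor chain shared by IL-4 and IL-13, rose from 69.6 ± 14.4 to 267 ± 7.29 CPM (1.94 ± 0.32, FDR 0.0458). Both calls were lost without any 1 CTL mouse or any lesional butyrate mouse. In lesional butyrate skin Il4ra was at 104 and 91.1 CPM, below both lesional CTL mice at 273 and 262 CPM (log2 fold change -1.45 ± 0.31, FDR 0.737), and Il13 was at 2.39 and 1.86 CPM, between the lesional CTL mice at 3.63 and 1.62 CPM (-0.30 ± 0.68, FDR 1).

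**Figure D5:**
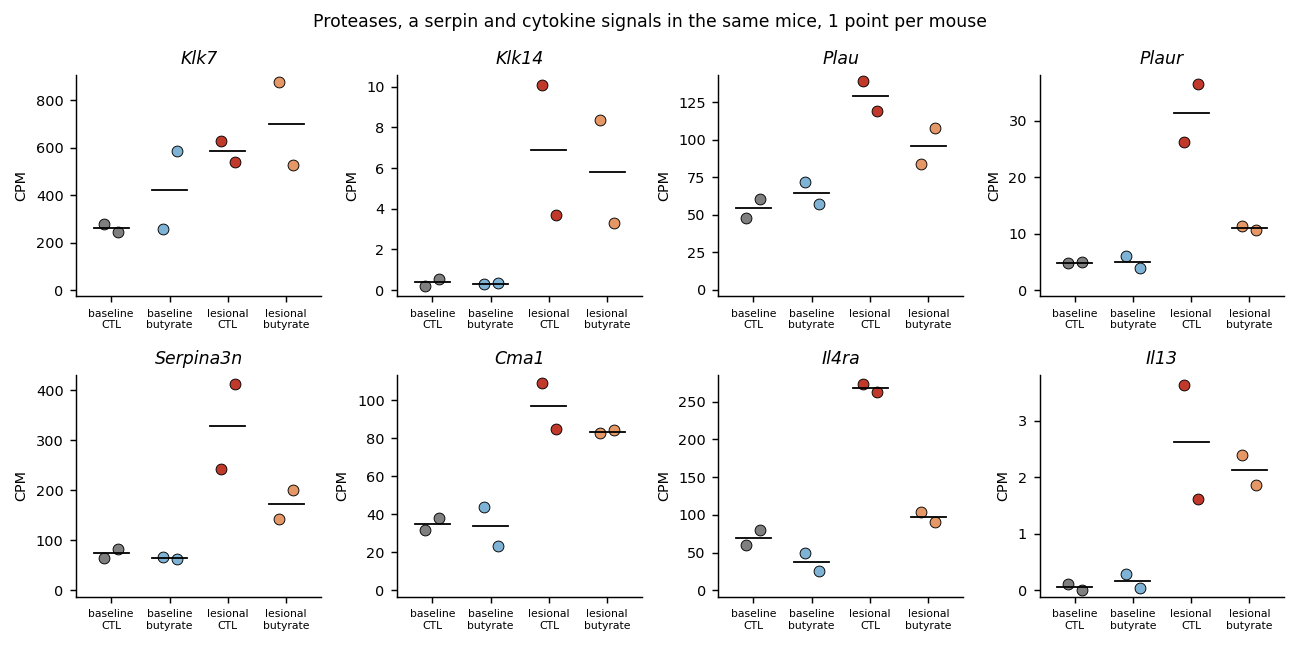
Level in CPM (linear axes with their own scales) of 4 protease and receptor genes in the upper row and of Serpina3n, Cma1, Il4ra and Il13 in the lower row, with 1 point per mouse and a line at the mean of 2 mice. Il4ra, Plaur and Serpina3n are highest in both lesional CTL mice, while the lesional groups overlap in Klk7, Klk14 and Il13.

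For butyrate against CTL in lesional skin, none of the 64 companions was called by edgeR, 10 had an unadjusted p below 0.05, and DESeq2 called 4, Serpinb9b, Plaur and Il4ra among them. Plaur was at 31.4 ± 7.42 CPM with water and 10.9 ± 0.497 CPM with butyrate (edgeR log2 fold change -1.52 ± 0.28, FDR 0.737). Without either baseline butyrate mouse edgeR called these 4 and Serpina3b. None was called by edgeR for butyrate against CTL in baseline skin, between lesional and baseline butyrate skin or for the difference of the butyrate effect between lesional and baseline skin, with 5, 21 and 7 at an unadjusted p below 0.05. DESeq2 called 0, 10 and 0 and limma-voom 0 in each, and without baseline butyrate replicate 1 edgeR called 22, 29 and 28. Without baseline butyrate replicate 3 it called 0, 12 and 0.

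The genes most like each member over the 8 libraries were found by Pearson's r of log2 CPM among 14193 genes. These values are descriptions over points that share the 8 libraries and the same 4 groups. They were not computed without baseline butyrate replicate 3. In that mouse Serpinb12 was at 0.857 CPM, compared with 6.65 to 17.9 CPM in the others. Serpinb3b (7.38 CPM) and Serpinb2 (67.5 CPM) were also lowest there. The nearest to Serpina12 were Cgn (r = 0.995), Lce1m (0.992) and Cldn23 (0.990), which encode cingulin, a late cornified envelope protein and a claudin. The nearest to Serpinb3a were B4galnt1 (0.997), Sprr2b (0.995), a small proline-rich protein of the cornified envelope, and Fam115c (0.994), and the nearest to Serpinb3b were Slc16a1 (0.994), a monocarboxylate transporter, Nadk (0.994) and Nfkbie (0.993), an inhibitor of NF-kB. The nearest to Serpinb2 were Il1f9 (0.992), the cytokine IL-36 gamma, Aadac (0.987) and Klrb1b (0.984). The nearest to Serpinb12 were Cyp2j8 (0.988), Duox1 (0.986) and Klhdc8b (0.983), and those nearest to the Serpinb3 sum were Il7r, Tnfrsf23 and Itgae (0.995 each). Among the members, Serpinb2 and Serpinb3b were the most alike pair (r = 0.964) and Serpina12 and Serpinb3a the most opposed (r = -0.759).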

How the data were processed

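RNA of snap-frozen skin was sequenced from TruSeq libraries. Per the labels, the authors used STAR 2.5.2 with GRCm38 and featureCounts (version not given in the sources used here), and the deposited file holds raw counts of protein-coding genes, counted as reverse-stranded. Groups were taken from the labels, where SCFA was read as butyrate and vehicle as CTL. The 7 members, the companion and marker lists and the alternatives were chosen with earlier results of these data known. Named companions were those called (at most 5 per list and comparison) and Ctsl, Ctss, Ctsk, Ctsg, Cma1, Plau, Plaur, Plat, Klk7, Klk14 and Il4ra, and for each member the 3 most alike genes with a mean of at least 1 CPM. One further companion counts in the totals and is not reported here by name. CPM was computed on TMM-scaled library sizes. All 8 mice were fitted together in edgeR 4.0.16 (R 4.3.3, glmQLFit, robust) after filterByExpr (minimum count 10), which left 15163 of 22740 genes and 4 residual degrees of freedom. The FDR was that of Benjamini and Hochberg, and the SE was the absolute log2 fold change divided by the square root of F. Each SE thus draws on the spread within all 4 groups, not only the groups compared. The code was tested on simulated data. As alternatives, DESeq2 1.42.0 and voom of limma 3.58.1 were run, as were RLE or upper-quartile factors, no filter, a prior count of 2, only the 4 mice compared, and fits that each omitted a mouse. An exact permutation test of 2 against 2 cannot go below p = 0.333 and was not used. The labels do not state separate litters or cages, so that p-values measure the spread between these mice. Transcripts and positions were taken from GENCODE vM21, by gene identifier, and found for 157 of 158 genes looked up, members included, and promoter windows from RefSeq, for 7 of 7 members. Sequences were aligned with Biopython 1.88.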

Additional observations from a re-analysis of the deposited data

How the results depend on the processing

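Of the 359 alternative values of the members' log2 fold changes, 13 moved by more than 1 SD and 4 changed sign, of which 1 had a size of at least 1 with all mice. That one is Serpina12 between lesional and baseline butyrate skin, at -1.11 with all mice 0.57 without baseline butyrate replicate 1 and -1.86 without replicate 3. Of the 64 companions, edgeR called 0 for butyrate against CTL in lesional skin, DESeq2 4 and edgeR on only the 4 mice compared 1, and leaving out single mice gave 0 to 5. For butyrate against CTL in baseline skin the count of 0 became 0 to 22 with single mice left out. Between lesional and baseline CTL skin the count of 11 became 16 by DESeq2, 21 with only the 4 mice compared and 0 to 24 with single mice left out. Between lesional and baseline butyrate skin the count of 0 became 10 by DESeq2 and 0 to 29, and for the difference of the butyrate effect 0 became 0 to 28, with single mice left out. The other settings kept these counts within 1.5-fold. Over all genes, the 543 calls between lesional and baseline CTL skin became 1093 by DESeq2, 1918 with the 4 mice compared and 0 to 1936 with single mice left out. The 53 calls between lesional and baseline butyrate skin became 698, 0 and 0 to 2990. The 0 calls in lesional skin became 124, 25 and 0 to 191, with 1 by limma-voom, the 0 calls in baseline skin became 58, 0 and 0 to 3777, and the 0 calls for the difference became 40 by DESeq2 and 0 to 5925 with single mice left out. A group of 1 mouse was assumed to vary like the other groups, and the cause of these shifts was not tested. The difference could not be fitted with only the 4 mice compared. Depth limits Serpinb3c, Serpinb3d and baseline Serpinb3a, which lie near 3 counts. No paired analysis was made, because no label matches mice of different groups to each other.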
